A study of Mus musculus with 10 samples.

Results

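The 7 chemokine receptors Ccr2, Ccr4, Ccr8, Cxcr3, Cxcr4, Cxcr5 and Cxcr6 were followed in the mouse line 2/20, whose cells are cytotoxic T lymphocytes (CTLs) that recognise the tumor peptide AH1. They were taken by gene name from a count table of 35275 genes, and all 7 were among the 14729 genes that passed a filter on low counts. RNA-seq libraries were made from 5 groups of 2 libraries each. In 2 groups CTLs had 24 h or 4 h of co-culture with 4T1, a BALB/c mouse mammary carcinoma line. The others were CTLs after 24 h or 4 h with AH1 peptide, and resting CTLs. All groups came from 1 wild-type CTL line. It was kept in weekly cultures with irradiated spleen cells of BALB/c mice, AH1 peptide at 1 µg/mL and 10 units/mL of IL-2. The CTLs were isolated with magnetic beads against CD45, the surface marker of blood cells. The series asks how tumor-specific CTLs depend on tryptophan uptake through the transporter Slc7a5; it is not stated whether the 2 libraries of a group came from separate cultures, so the p-values below measure the spread between libraries, which may be technical.

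Chemokine receptors are G protein-coupled receptors that sit in the cell membrane, bind small secreted proteins called chemokines and turn the cell toward their source. Ligand binding activates Gi proteins and phosphoinositide 3-kinase and, through Rac, rearranges the actin skeleton. CTLs change their set of receptors after they meet antigen, and the receptors they carry bear on whether they enter a lymph node, an inflamed tissue or a tumor.

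Library totals ran between 14104658 and 22910633 counts. The cell content of the libraries differed beside every comparison below. The summed level of 18 T cell markers was 1395 to 1446 CPM (counts scaled to the size of their library, with TMM factors) in the 4T1 24 h libraries, 3225 to 3347 CPM at 4T1 4 h, 4640.3 to 4915 CPM at AH1 24 h, 14890.2 to 15505 CPM at AH1 4 h and 9326 to 9707 CPM at rest; Cd6 was at 0 in the co-culture and resting groups. The summed level of 10 epithelial markers, which mark 4T1 cells, was 3501 to 3651 CPM at 4T1 24 h and 4169 to 4209 CPM at 4T1 4 h, against 0.319 to 6.39 CPM over the other 6 libraries. B cell markers were high in the peptide libraries (10 markers summing to 209 to 441 CPM at AH1 24 h and 466 to 551 CPM at AH1 4 h), against at most 3.64 CPM elsewhere. In bulk libraries, fewer T cells and less RNA per T cell cannot be told apart. For this reason changes are given relative to all genes (TMM scaling). Calls and signs are also given after the libraries were set equal on the median level of the 18 T cell markers, called T cell scaling below. The 18 markers did not move together. At AH1 4 h against rest 11 rose and 3 fell, with Cd8a at 1353 against 146 CPM and Cd3d at 251 against 535 CPM. Whether their level per T cell stayed the same was not tested. T cell scaling shifts the median gene itself: it placed the median log2 change of all genes at 2.54 for 4T1 24 h minus rest, 1.11 for 4T1 4 h minus rest, 0.64 for AH1 24 h minus rest and -0.81 for AH1 4 h minus rest.

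Relative to all genes, the 7 receptors fell into 3 patterns. Cxcr6, Cxcr3 and Ccr2 were highest at rest and lower in all 4 activated groups, an order that under T cell scaling held for Ccr2 alone. Cxcr4 was highest after 4 h with 4T1 cells. Ccr8, Ccr4 and Cxcr5 were low at rest and high in 1 or more activated groups, and each of these had a different group at its top.

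Cxcr6, the receptor for the membrane-bound chemokine Cxcl16 and a receptor of tissue-resident and tumor-infiltrating T cells, was the most abundant of the 7. It had 394 and 490.3 CPM in the 4T1 24 h libraries, 454 and 439 CPM at 4T1 4 h, 256 and 295 CPM at AH1 24 h, 938 and 713 CPM at AH1 4 h, and 1211 and 1255 CPM at rest. The resting libraries lay above all others, and the 4T1 24 h and 4T1 4 h libraries overlapped. Under T cell scaling the 4T1 24 h libraries were the highest, with 1345 and 1776 CPM, while both 4T1 4 h libraries had 581 CPM and the resting libraries 739 and 802 CPM.

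Cxcr3, the receptor for the interferon-induced chemokines Cxcl9, Cxcl10 and Cxcl11, had 61.9 and 42.3 CPM at 4T1 24 h, 54.3 and 59.1 CPM at 4T1 4 h, 22.1 and 19.0 CPM at AH1 24 h, 65.4 and 83.3 CPM at AH1 4 h, and 259 and 260.2 CPM at rest. It had the same order of groups as Cxcr6: rest, AH1 4 h, the overlapping 4T1 groups, then AH1 24 h.

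Ccr2, the receptor for Ccl2 and related monocyte chemoattractants, had 4.40 and 3.96 CPM at 4T1 24 h, 15.4 and 13.6 CPM at 4T1 4 h, 5.91 and 8.47 CPM at AH1 24 h, 47.1 and 37.6 CPM at AH1 4 h, and 164 and 174 CPM at rest. None of the 5 groups overlapped, and in both arms the 24 h libraries lay below the 4 h libraries.

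The upstream sequences of these receptors are shown because the 3 genes had their highest levels at rest together relative to all genes; under T cell scaling this held for Ccr2 alone. They are RefSeq promoters on GRCm38.p6, 250 bases before to 50 bases after the annotated start, read 5′ to 3′ on the gene's strand; 6 of the 7 receptors had an entry. Capitals mark matches, on either strand, to the letters GGAAAA (the NFAT motif), TGTGGT (the RUNX motif), AGATAA (the motif of GATA factors) or TGANTCA (the AP-1 motif); no matches overlapped. Among 32851 promoters of the same length, 23.4% held the NFAT letters, 16.8% the RUNX letters, 11.2% the GATA letters and 7.81% the AP-1 letters, and a match is a description of the letters alone.
Cxcr6, chr9:123806227-123806526, plus strand: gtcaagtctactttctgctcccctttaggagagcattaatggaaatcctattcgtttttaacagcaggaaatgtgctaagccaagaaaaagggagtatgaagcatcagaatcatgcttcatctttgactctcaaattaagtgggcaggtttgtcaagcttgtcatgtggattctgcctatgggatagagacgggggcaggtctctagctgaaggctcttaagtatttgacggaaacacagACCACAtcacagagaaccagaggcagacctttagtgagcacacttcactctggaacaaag
Cxcr3, chrX:101734098-101734397, minus strand: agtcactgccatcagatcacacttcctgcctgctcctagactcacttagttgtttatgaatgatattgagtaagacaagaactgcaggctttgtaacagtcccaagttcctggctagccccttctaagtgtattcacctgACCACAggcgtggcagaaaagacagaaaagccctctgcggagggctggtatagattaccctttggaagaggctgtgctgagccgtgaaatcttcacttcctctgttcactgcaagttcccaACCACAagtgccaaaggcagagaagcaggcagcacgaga
Ccr2, chr9:124101933-124102232, plus strand: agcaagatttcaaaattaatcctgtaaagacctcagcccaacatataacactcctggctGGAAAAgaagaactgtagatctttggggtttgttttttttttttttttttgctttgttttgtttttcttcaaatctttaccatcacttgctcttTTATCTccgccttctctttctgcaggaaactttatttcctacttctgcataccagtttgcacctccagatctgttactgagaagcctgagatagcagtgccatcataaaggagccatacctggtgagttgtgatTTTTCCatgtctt
Cxcr6 had 1 RUNX match, on the opposite strand, from -10 to -5 relative to the start. Cxcr3 had 2, both on the opposite strand, from -110 to -105 and from 12 to 17. Ccr2 had no RUNX match. It had NFAT letters from -191 to -186 and, on the opposite strand, from 38 to 43, and a GATA match on the opposite strand from -97 to -92. The deposited table starts Ccr2 233 bases and Cxcr3 122 bases upstream of the RefSeq start, so for these genes part of the window lies inside the span that was counted.

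Cxcr4, the receptor for Cxcl12 and a receptor of many blood and tumor cells, had 55.0 and 51.2 CPM at 4T1 24 h, 271 and 294 CPM at 4T1 4 h, 37.8 and 35.4 CPM at AH1 24 h, 103.8 and 104.2 CPM at AH1 4 h, and 129 and 119 CPM at rest. No neighbouring groups in its order (4T1 4 h, rest, AH1 4 h, 4T1 24 h, AH1 24 h) overlapped. Its RefSeq promoter held none of the 4 motifs.

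Ccr8, the receptor for Ccl1, had 2.18 and 1.18 CPM at 4T1 24 h, 12.8 and 14.4 CPM at 4T1 4 h, 8.14 and 6.17 CPM at AH1 24 h, 5.97 and 4.23 CPM at AH1 4 h, and 0.616 and 0.755 CPM at rest. It was the receptor with its top after 4 h of co-culture and its lowest level at rest, and no groups overlapped.

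Ccr4, the receptor for Ccl17 and Ccl22, had 2.64 and 2.00 CPM at 4T1 24 h, 1.94 and 2.53 CPM at 4T1 4 h, 146 and 136 CPM at AH1 24 h, 6.19 and 7.88 CPM at AH1 4 h, and 6.88 and 6.18 CPM at rest. The AH1 24 h libraries stood apart from the other 8, the AH1 4 h libraries overlapped the resting ones, and the 2 co-culture groups overlapped each other.

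The promoters of Ccr4 and Ccr8 are shown as the members with a high level in activated groups and a RefSeq entry, with capitals for the same motifs.
Ccr4, chr9:114496495-114496794, minus strand: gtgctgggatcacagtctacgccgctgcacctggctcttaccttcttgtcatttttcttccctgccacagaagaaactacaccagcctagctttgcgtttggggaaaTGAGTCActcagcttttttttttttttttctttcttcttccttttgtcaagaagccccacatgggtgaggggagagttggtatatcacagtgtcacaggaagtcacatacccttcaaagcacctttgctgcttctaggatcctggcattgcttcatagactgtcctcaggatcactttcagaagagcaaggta
Ccr8, chr9:120091883-120092182, plus strand: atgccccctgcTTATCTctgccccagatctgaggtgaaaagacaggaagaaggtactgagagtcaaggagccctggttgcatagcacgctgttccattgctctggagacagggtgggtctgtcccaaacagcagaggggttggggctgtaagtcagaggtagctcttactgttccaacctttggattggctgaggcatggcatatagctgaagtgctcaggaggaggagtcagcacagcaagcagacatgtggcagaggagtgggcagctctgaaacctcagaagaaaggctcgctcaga
Ccr4 was the member with an AP-1 match, from -143 to -137 on its own strand, and Ccr8 had a GATA match on the opposite strand from -239 to -234. Neither held the NFAT or RUNX letters on either strand in this window.

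Cxcr5, the receptor for Cxcl13 that guides B cells and follicular T cells into B cell follicles, had 0.602 and 0.668 CPM at 4T1 24 h, 0.424 and 0.671 CPM at 4T1 4 h, 7.02 and 15.3 CPM at AH1 24 h, 23.0 and 19.9 CPM at AH1 4 h, and 0.672 and 0.412 CPM at rest. Outside the peptide groups it rested on 6 to 17 counts per library, where the groups overlapped.

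**Figure D1:**
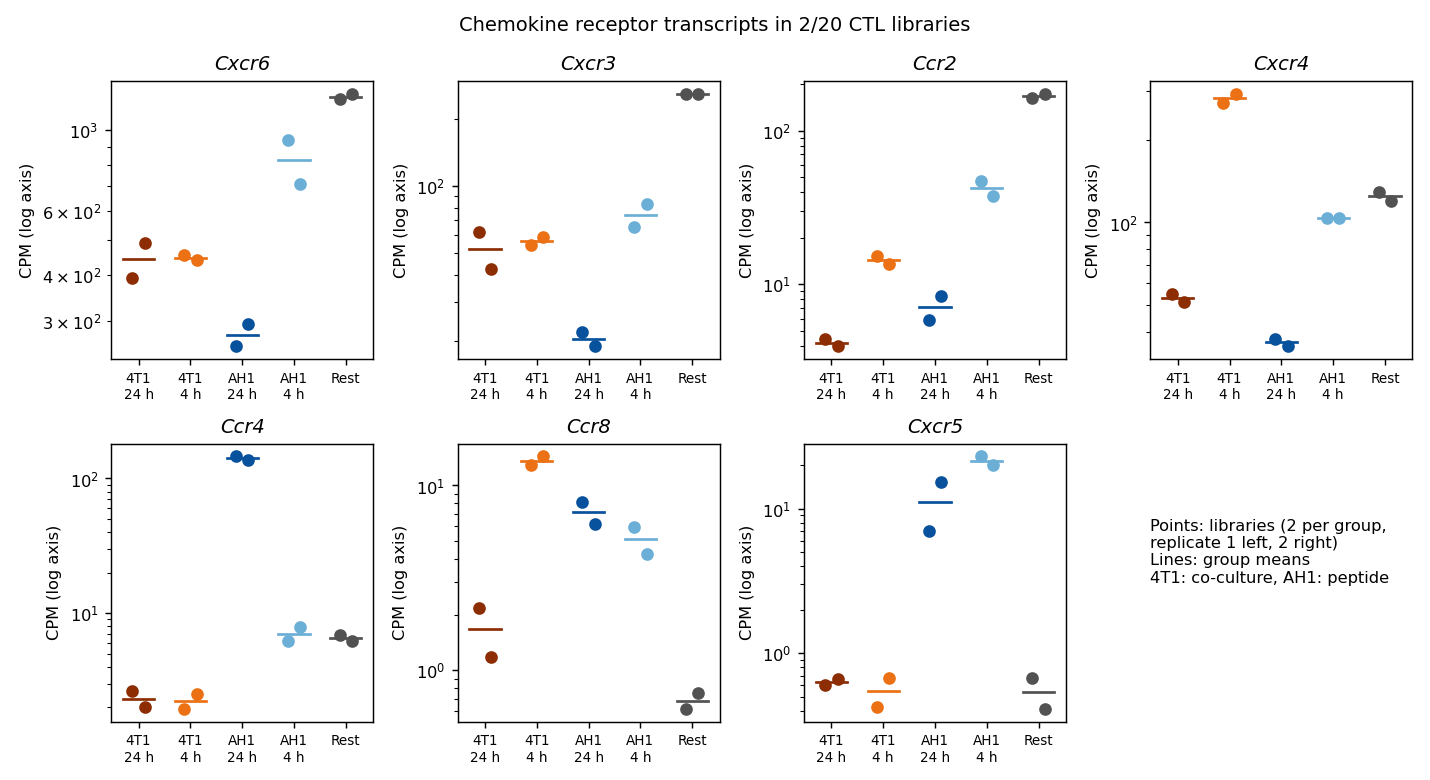
Level of each receptor in CPM (log axes) in the 10 libraries, with the 4T1 groups on the left, the AH1 groups next and rest on the right; points are libraries and lines are group means. On this TMM-scaled axis, Cxcr6, Cxcr3 and Ccr2 were highest at rest, Cxcr4 and Ccr8 at 4T1 4 h, Ccr4 at AH1 24 h and Cxcr5 at AH1 4 h.

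To compare receptors with each other, CPM was divided by gene length in kilobases. The summed level of the 7 receptors on this scale was 296 ± 25.7 at 4T1 24 h, 441 ± 6.25 at 4T1 4 h, 240 ± 11.2 at AH1 24 h, 559 ± 79.2 at AH1 4 h and 905 ± 14.1 at rest (CPM per kb, SD, n = 2 each). Cxcr6 made up 74.8% and 82.3% of that sum at 4T1 24 h, 55.0% and 52.1% at 4T1 4 h, 58.3% and 62.9% at AH1 24 h, 80.5% and 74.9% at AH1 4 h, and 71.5% and 72.5% at rest. It was thus the largest share in all 10 libraries, and the receptor in second place was not the same in all of them. Second was Cxcr4 at 4T1 4 h (34.4% and 36.6%, against 8.01% and 7.22% at rest) and Ccr4 at AH1 24 h (22.6% and 19.7%, against 0.276% and 0.242% at rest). At rest Cxcr3 was second, with 16.7% and 16.4%. Cxcr4 was second at AH1 4 h too (9.35% and 11.5%). The 4T1 24 h libraries differed: Cxcr3 was second in replicate 1 (12.9%) and Cxcr4 in replicate 2 (9.01%). Because shares are ratios within a library, the scaling of libraries does not enter them.

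**Figure D2:**
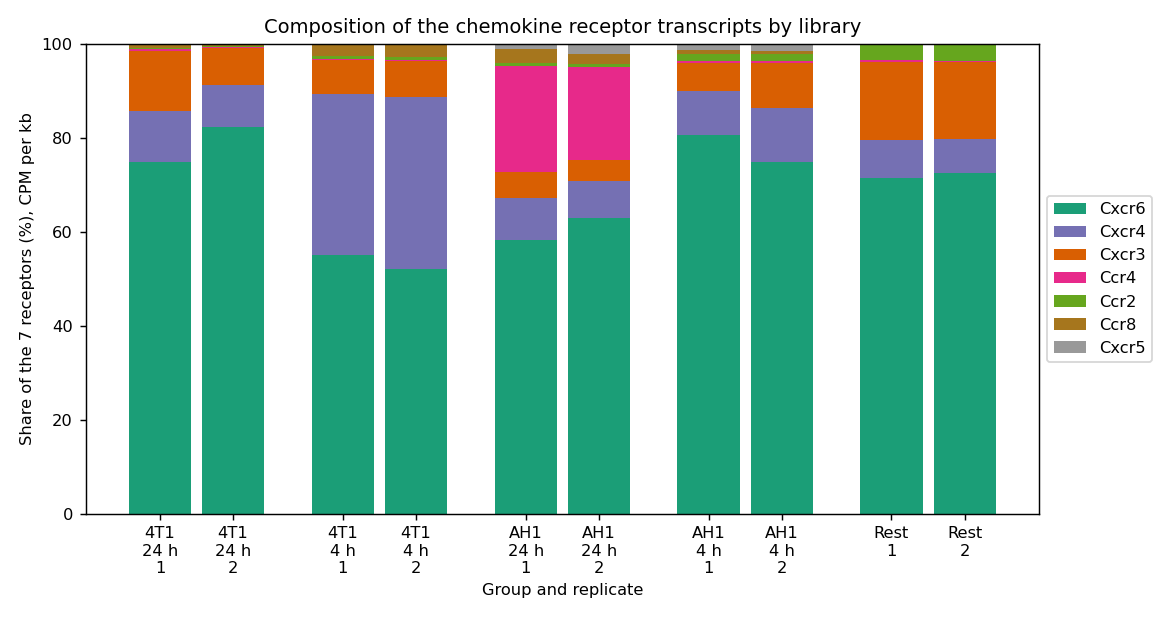
Share of each receptor in the summed CPM per kb of the 7 receptors, 1 bar per library, from 0 to 100%. Cxcr6 filled 52.1% to 82.3% of each bar; the Cxcr4 band was widest in the 4T1 4 h bars (34.4% and 36.6%) and the Ccr4 band in the AH1 24 h bars (22.6% and 19.7%).

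In AH1 peptide cultures at 24 h, set against rest, all 7 receptors changed: Ccr4, Cxcr5 and Ccr8 rose and Ccr2, Cxcr3, Cxcr6 and Cxcr4 fell. Ccr4 was 21.5-fold higher (log2 change 4.43 ± 0.21 SE, adjusted p = 4.1e-09, by the quasi-likelihood test of edgeR, Benjamini-Hochberg adjusted over all genes tested, threshold 0.05). Ccr8 rose by 3.38 ± 0.42 and Cxcr5 by 4.32 ± 0.47 on the log2 scale. Ccr2 was 23.5-fold lower (-4.55 ± 0.21, adjusted p = 3.5e-09) and Cxcr3 12.6-fold lower (-3.66 ± 0.20, adjusted p = 1.4e-08), while the log2 change was -2.16 ± 0.16 for Cxcr6 and -1.76 ± 0.13 for Cxcr4. Of all genes tested, 29.2% rose and 26.1% fell in this comparison, and the median log2 change was -1.76 over the 7 receptors and 0.02 over all genes. The same receptors rose and fell under T cell scaling. Of 5 markers of CD4 T and NK cells, 4 were tested, and of these 2 rose and 2 fell at AH1 24 h against rest; the 5 summed to 23.3 to 24.9 CPM at AH1 24 h, against 15.7 to 17.9 CPM at rest, and their part in the rises was not tested.

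At 4 h with peptide, against rest, Cxcr5 and Ccr8 rose, Ccr2, Cxcr3 and Cxcr6 fell, and 2 receptors missed the threshold. Ccr2 was 3.99-fold lower (-1.99 ± 0.18, adjusted p = 7.6e-07), Cxcr3 3.49-fold lower (-1.80 ± 0.19, adjusted p = 2.4e-06) and Ccr8 7.42-fold higher (2.89 ± 0.43, adjusted p = 6.5e-05, all by edgeR). The fall of Cxcr6 was small (-0.58 ± 0.16, adjusted p = 0.0062) and was not called without AH1 4 h replicate 2 (-0.39, adjusted p = 0.0900). Cxcr5 was 38.5-fold higher (5.27 ± 0.48). Ccr4 (0.10 ± 0.21, adjusted p = 0.698) and Cxcr4 (-0.26 ± 0.13, adjusted p = 0.0989) missed the threshold, and both were lower and called under T cell scaling (-0.67 for Ccr4 and -1.03 for Cxcr4). Of all genes tested, 28.8% rose and 30.7% fell.

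In the peptide groups, the receptors changed at different times relative to all genes. At AH1 24 h, against AH1 4 h, Ccr4 rose 20.0-fold (4.32 ± 0.21, adjusted p = 4.3e-09), and Ccr2 (-2.56 ± 0.20), Cxcr3 (-1.85 ± 0.19), Cxcr6 (-1.58 ± 0.16), Cxcr4 (-1.51 ± 0.13) and Cxcr5 (-0.94 ± 0.36) fell, beside 28.2% of all genes that rose and 24.6% that fell. The log2 change of Ccr8 was 0.49 ± 0.35 (adjusted p = 0.259 by edgeR). Under T cell scaling Ccr8 rose by 1.87. That scaling moved the median of all genes from 0.03 to 1.43 here, so any rise becomes larger under it. The fall of Cxcr5 (adjusted p = 0.0398) was not called without AH1 4 h replicate 1 (-0.85, adjusted p = 0.150), AH1 4 h replicate 2 (-1.06, 0.0728), AH1 24 h replicate 1 (-0.49, 0.254), 4T1 4 h replicate 1 (adjusted p = 0.0570) or 4T1 4 h replicate 2 (adjusted p = 0.0564). Under T cell scaling Cxcr4 (-0.11) and Cxcr6 (-0.18) were no longer called and Cxcr5 had the opposite sign (0.50, adjusted p = 0.313); the rise of Ccr4 and the falls of Ccr2 and Cxcr3 remained called. The T cell marker sum was also lower at AH1 24 h than at AH1 4 h, where 16 of 18 markers fell and none rose, and its part in the falls was not tested beyond this scaling.

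In 4T1 co-culture at 24 h, against rest, Ccr8 was the 1 receptor that rose relative to all genes, and 5 fell. Ccr2 was 40.3-fold lower (-5.33 ± 0.22, adjusted p = 6.5e-10), Cxcr3 4.98-fold lower (-2.32 ± 0.19, adjusted p = 2.0e-07), Ccr4 2.80-fold lower (-1.49 ± 0.23, adjusted p = 7.1e-05), Cxcr6 2.79-fold lower (-1.48 ± 0.16, adjusted p = 2.9e-06) and Cxcr4 2.34-fold lower (-1.23 ± 0.13, adjusted p = 2.3e-06), by edgeR. The T cell markers moved with these falls: 16 of 18 fell, with a median log2 change of -2.66. Under T cell scaling the fall of Ccr2 remained (-2.84). There Cxcr6 (1.02), Cxcr4 (1.27) and Ccr4 (1.00) were higher than at rest and Cxcr3 was not called (0.17, edgeR adjusted p = 0.373). That scaling moved the median of all genes from 0.05 to 2.54 here, so any rise becomes larger under it. The values of Cxcr6, Cxcr4 and Ccr4 lay below that median. Epithelial markers summed to 3501 to 3651 CPM in these libraries. Which cells carried the receptor transcripts in the co-culture libraries was not tested. Ccr8 rose 2.46-fold relative to all genes (1.30 ± 0.45, adjusted p = 0.0213) and by 3.78 on the log2 scale under T cell scaling. Its TMM call was lost without 4T1 24 h replicate 1 (0.79, adjusted p = 0.207), resting replicate 1 (1.12, 0.112) or resting replicate 2 (1.40, 0.0539). Across all genes, 36.0% rose and 29.3% fell, and Cxcr5 was not called (0.20 ± 0.57, adjusted p = 0.777) except under T cell scaling (2.68).

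At 4 h of co-culture, against rest, Ccr8 and Cxcr4 rose and Ccr2, Cxcr3, Ccr4 and Cxcr6 fell. Ccr8 was 19.8-fold higher (4.31 ± 0.42, adjusted p = 1.4e-06) and Cxcr4 2.27-fold higher (1.19 ± 0.13, adjusted p = 3.3e-06). T cell scaling gave 5.36 and 2.25. It moved the median of all genes from 0.05 to 1.11 here, so any rise becomes larger under it. Ccr2 was 11.7-fold lower (-3.54 ± 0.20, adjusted p = 7.4e-09) and Cxcr3 4.58-fold lower (-2.19 ± 0.19, adjusted p = 3.9e-07); under T cell scaling these falls were -2.49 and -1.13 and remained called. The falls of Ccr4 (-1.53 ± 0.23) and Cxcr6 (-1.46 ± 0.16) were not called under T cell scaling (-0.46 and -0.41), and 14 of the 18 T cell markers fell here. Cxcr5 was not called (0.03 ± 0.58, adjusted p = 0.967). The shares over all genes were 34.2% that rose and 26.7% that fell. The median log2 change of the 7 receptors against rest was -1.48 at 4T1 24 h, -1.46 at 4T1 4 h and -0.26 at AH1 4 h, beside 0.05, 0.05 and -0.04 over all genes. The 4 comparisons with rest share the same 2 resting libraries.

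**Figure D3:**
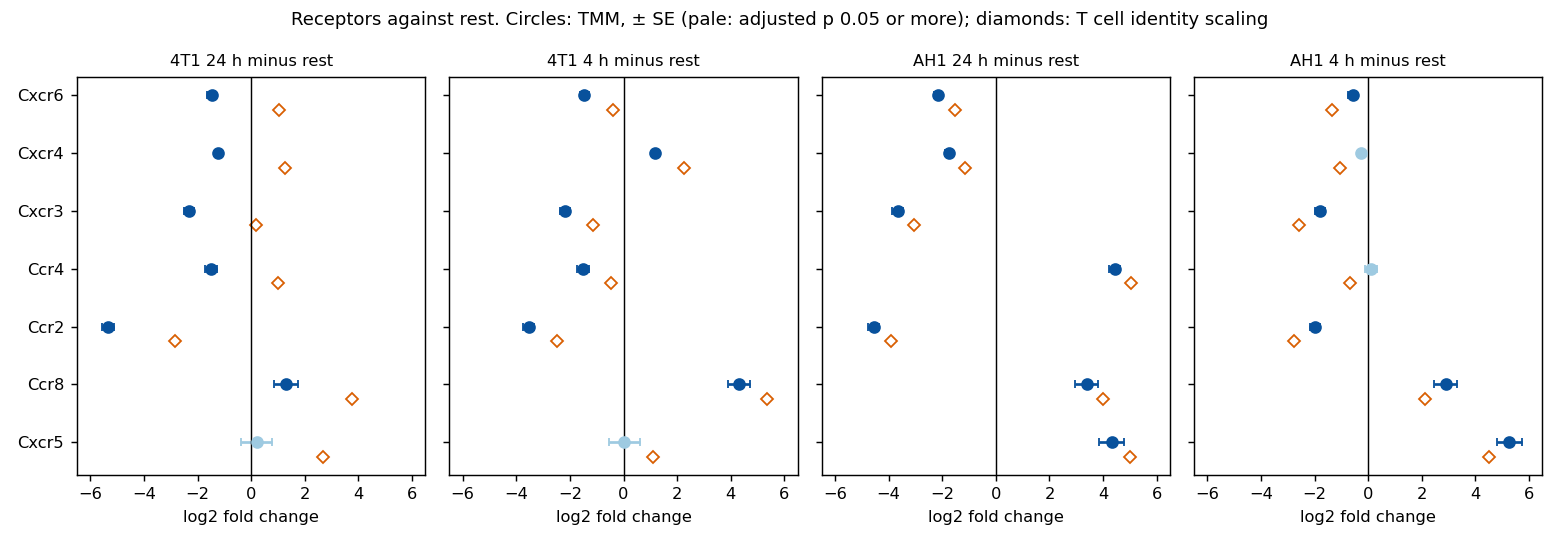
Log2 fold change of each receptor against rest in the 4 activated groups. Filled circles give TMM scaling with SE bars, pale where the adjusted p was 0.05 or more, and open diamonds give T cell scaling; at 4T1 24 h the diamonds of Cxcr6 (1.02), Cxcr4 (1.27) and Ccr4 (1.00) lie right of 0 and the circles left of it.

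At 24 h, 4T1 co-culture and peptide differed in all 7 receptors. Ccr4 was 60.3-fold lower in co-culture than with peptide (-5.91 ± 0.23, adjusted p = 5.0e-10), Cxcr5 17.4-fold lower (-4.12 ± 0.45, adjusted p = 5.0e-06) and Ccr8 4.23-fold lower (-2.08 ± 0.37, adjusted p = 3.8e-04). Cxcr3 was 2.54-fold higher (1.34 ± 0.19, adjusted p = 5.6e-05), Cxcr6 1.60-fold higher (0.68 ± 0.16, adjusted p = 0.0027) and Cxcr4 1.45-fold higher (0.54 ± 0.13, adjusted p = 0.0036), each by edgeR. T cell scaling moved the median of all genes to 1.89; there Cxcr3, Cxcr6 and Cxcr4 were higher by 3.21, 2.55 and 2.41, Ccr4 and Cxcr5 were still lower (-4.05 and -2.31), and the difference in Ccr8 was not called (-0.21). Ccr2 was 1.72-fold lower (-0.78 ± 0.22, adjusted p = 0.0084), which was not called without AH1 24 h replicate 2 (-0.50, adjusted p = 0.119) and reversed under T cell scaling (1.07). Of all genes tested, 28.6% were higher and 24.0% lower in co-culture.

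At 4 h, Cxcr4 and Ccr8 were higher in co-culture than with peptide and Cxcr5, Ccr4, Ccr2 and Cxcr6 were lower. Cxcr4 differed 2.72-fold (1.44 ± 0.13, adjusted p = 6.3e-07) and Ccr8 2.67-fold (1.42 ± 0.35, adjusted p = 0.0031). T cell scaling gave 3.28 and 3.25. It moved the median of all genes from 0.16 to 1.99 here, so any positive difference becomes larger under it. Cxcr5 was 37.6-fold lower (-5.23 ± 0.46, adjusted p = 5.8e-07) and remained lower there (-3.40). The differences in Ccr4 (-1.63 ± 0.23), Ccr2 (-1.55 ± 0.19) and Cxcr6 (-0.89 ± 0.16) did not survive T cell scaling, which gave 0.21, 0.28 and 0.95, with Cxcr6 then called higher. Cxcr3 was -0.39 ± 0.18 (adjusted p = 0.0825) relative to all genes and higher by 1.45 under T cell scaling. All 18 T cell markers were lower in co-culture than with peptide at 4 h. Across all genes, 35.1% were higher and 26.3% lower.

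At 4T1 24 h, against 4T1 4 h, 3 receptors fell and none rose, beside 8.50% of all genes that rose and 8.02% that fell. Cxcr4 was 5.32-fold lower (-2.41 ± 0.13, adjusted p = 2.2e-07), Ccr8 8.04-fold lower (-3.01 ± 0.37, adjusted p = 1.1e-04) and Ccr2 3.46-fold lower (-1.79 ± 0.21, adjusted p = 6.4e-05). Ccr4 (0.04 ± 0.25), Cxcr3 (-0.12 ± 0.18), Cxcr6 (-0.02 ± 0.16) and Cxcr5 (0.17 ± 0.55) were not called by edgeR, with adjusted p of 0.949, 0.718, 0.974 and 0.892. Under T cell scaling, where the median of all genes was 1.44, Cxcr6 (1.42), Ccr4 (1.47), Cxcr3 (1.30) and Cxcr5 (1.60) rose, Ccr8 fell by 1.59 and Cxcr4 fell by 0.98, and Ccr2 was not called (-0.36).

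The change over time differed between the 2 ways of activation for 5 of the 7 receptors. The difference of the 2 changes (co-culture minus peptide, edgeR) was -4.28 ± 0.32 for Ccr4 (adjusted p = 7.5e-07), -3.50 ± 0.51 for Ccr8 (adjusted p = 1.6e-04) and -0.91 ± 0.18 for Cxcr4 (adjusted p = 0.0018). It was 1.73 ± 0.26 for Cxcr3 (adjusted p = 2.4e-04) and 1.57 ± 0.22 for Cxcr6 (adjusted p = 1.4e-04). Of all genes tested, 15.8% had a positive and 20.2% a negative difference past the threshold. The same 5 receptors were called with the same signs under T cell scaling. The values there were -4.26, -3.46, -0.87, 1.76 and 1.60 in the same order. That scaling moved the median of all genes just from -0.10 to -0.06 here. It therefore left these values almost as they were and is no separate check of them. Ccr2 (0.77 ± 0.28, adjusted p = 0.0502) and Cxcr5 (1.11 ± 0.65, adjusted p = 0.211) missed the threshold.

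In the peptide groups, where Cxcr5 was high, B cell markers were high too. All 10 B cell markers rose in both peptide groups against rest. Per 100 CPM of summed B cell markers, Cxcr5 had 3.36 and 3.46 CPM at AH1 24 h and 4.93 and 3.62 CPM at AH1 4 h. On few counts of both, the same ratio was 86.7 to 162.5 at 4T1 24 h, 29.2 to 56.7 at 4T1 4 h and 11.3 to 22.2 at rest. The 2 AH1 24 h libraries differed in both quantities, with 7.02 CPM Cxcr5 beside 209 CPM of B cell markers in replicate 1 and 15.3 CPM beside 441 CPM in replicate 2. Which cells carried the Cxcr5 transcripts was not tested. In GENCODE M21 an exon of Cxcr5 also overlaps an exon of Bcl9l on the opposite strand. In the gene coordinates that came with the counts, the spans of Cxcr5 and Bcl9l did not overlap. Whether reads were counted by strand is not stated. Bcl9l had 72.9 and 55.3 CPM at 4T1 24 h, 36.8 and 48.7 CPM at 4T1 4 h, 9.15 and 5.46 CPM at AH1 24 h, 3.76 and 5.18 CPM at AH1 4 h, and 37.6 and 36.4 CPM at rest, and its part in the Cxcr5 counts was not tested.

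**Figure D4:**
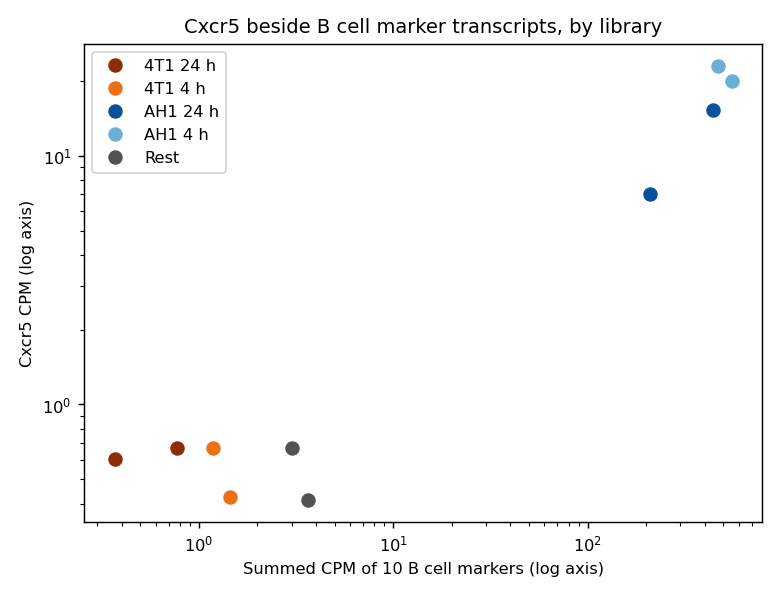
Cxcr5 in CPM against the summed CPM of 10 B cell markers, 1 point per library, both axes logarithmic. The 4 peptide libraries lie at 209 to 551 CPM of B cell markers and 7.02 to 23.0 CPM of Cxcr5, and the 4T1 and resting libraries at no more than 3.64 CPM and 0.672 CPM.

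Cxcr6 lies within the span of Fyco1, an autophagy adaptor gene on the opposite strand, with no shared exon in GENCODE M21. Fyco1 also fell in all 4 groups against rest (-2.48 at 4T1 24 h, -1.83 at 4T1 4 h, -3.27 at AH1 24 h and -0.58 at AH1 4 h on the log2 scale). Its counts were 376 to 3911 per library, below those of Cxcr6 in each library. The part of intronic reads in either gene was not tested.

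The receptors' ligands were measured in the same libraries. Of 13 listed ligands, 9 passed the filter, and against rest 6 rose and 1 fell at 4T1 24 h, 6 rose and 1 fell at 4T1 4 h, 7 rose at AH1 24 h and 8 rose at AH1 4 h. Of all genes tested, 36.0% rose and 29.3% fell at 4T1 24 h, 34.2% and 26.7% at 4T1 4 h, 29.2% and 26.1% at AH1 24 h, and 28.8% and 30.7% at AH1 4 h. The median log2 change over the 9 was 5.32, 5.55, 3.04 and 3.02 in these comparisons, or 5.08 at 4T1 24 h and 2.52 at AH1 24 h with Ccl1, which had no count at rest, at its lower bound; the medians over all genes were 0.05, 0.05, 0.02 and -0.04. The counts were the same under T cell scaling except that 7 rose at AH1 4 h; of all 14729 genes, 11842 then rose and 293 fell at 4T1 24 h, 8986 and 1264 at 4T1 4 h, 6716 and 2033 at AH1 24 h, and 2181 and 7253 at AH1 4 h.

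The Cxcr3 ligands were higher in all 4 activated groups than at rest. Cxcl9 had 389 and 537 CPM at 4T1 24 h, 174 and 170.0 CPM at 4T1 4 h, 10.4 and 12.2 CPM at AH1 24 h, 205 and 120.1 CPM at AH1 4 h, and 0 and 0.343 CPM at rest. Cxcl10 ran between 182 and 294 CPM in the 4 co-culture libraries, 14.5 CPM in both AH1 24 h libraries and 83.5 and 89.8 CPM at AH1 4 h, against 0.392 and 0.480 CPM at rest. Cxcl11 had 196 and 255 CPM at 4T1 24 h and 0.0560 and 0.275 CPM at rest. All 3 rose in each of the 4 activated groups against rest.

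Cxcl16, the Cxcr6 ligand, was high in co-culture, with 179 and 199.6 CPM at 4T1 24 h and 139 and 130.1 CPM at 4T1 4 h, against 7.56 and 9.07 CPM at AH1 24 h, 17.7 and 11.8 CPM at AH1 4 h and 3.92 and 5.63 CPM at rest. It was 4.51 ± 0.22 (log2) higher at 4T1 24 h than at AH1 24 h. Ccl2, a Ccr2 ligand, had 9.92 and 11.97 CPM at 4T1 24 h and 16.0 and 14.3 CPM at 4T1 4 h, and stayed under 1 CPM in the other 6 libraries.

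The Ccr4 ligand Ccl22 was high in the peptide groups and low in co-culture. It had 0.371 and 0.565 CPM at 4T1 24 h, 0.606 and 0.513 CPM at 4T1 4 h, 144 and 150.0 CPM at AH1 24 h, 140.1 and 112 CPM at AH1 4 h, and 22.2 and 13.4 CPM at rest. Thus Ccl22 was already high at AH1 4 h, where Ccr4 was at its resting level under TMM scaling. Its log2 change against rest was -5.25 at 4T1 24 h, -5.002 at 4T1 4 h, 3.04 at AH1 24 h and 2.82 at AH1 4 h, and all 4 were called.

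Ccl1, the Ccr8 ligand, had 0.695 and 0.257 CPM at 4T1 24 h, 21.3 and 26.3 CPM at 4T1 4 h, 0.532 and 0.109 CPM at AH1 24 h, 5620.0 and 4965 CPM at AH1 4 h, and no count at rest. Against a floor of 3 counts over the resting group, it was at least 57208-fold higher at AH1 4 h and at least 263-fold higher at 4T1 4 h. Ccl1 and Ccr8 had their top in different 4 h groups. Which cells made the ligands cannot be told apart in these libraries: epithelial markers were high in all co-culture libraries, B cell markers in all peptide libraries, and 9 myeloid markers summed to 40.1 to 41.0 CPM at 4T1 24 h, 21.3 to 22.5 CPM at 4T1 4 h, 39.8 to 60.5 CPM at AH1 24 h, 136 to 185 CPM at AH1 4 h and 42.1 to 46.7 CPM at rest.

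**Figure D5:**
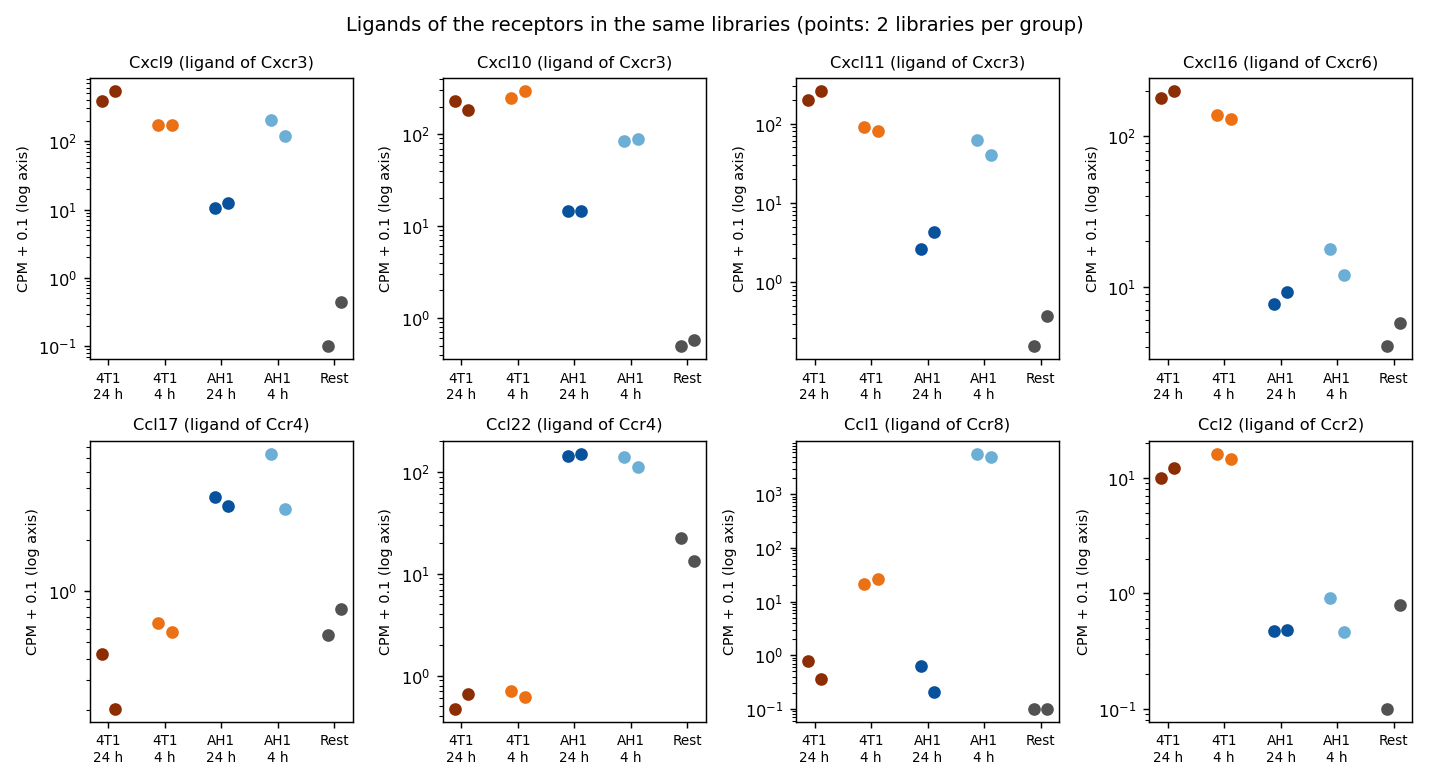
Ligands of the receptors in the 10 libraries, as CPM plus 0.1 on log axes, with 2 points per group. Cxcl9, Cxcl10, Cxcl11 and Cxcl16 lie above rest in all activated groups, Ccl22 is high with peptide and low in co-culture, and Ccl1 peaks at AH1 4 h (5620.0 and 4965 CPM).

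Of 16 other chemokine receptors, 11 passed the filter; against rest 2 rose and 4 fell at 4T1 24 h, 2 rose and 4 fell at 4T1 4 h, 2 rose and 3 fell at AH1 24 h, and 7 rose and 2 fell at AH1 4 h. Under T cell scaling these counts were 4 and 2, 4 and 2, 2 and 3, and 4 and 2. With TMM the shares of all genes that rose and fell were 36.0% and 29.3%, 34.2% and 26.7%, 29.2% and 26.1%, and 28.8% and 30.7% in the same order, and T cell scaling moved those shares as given for the ligands. Some of the rises at AH1 4 h were near the floor, such as Ccr6 with 1.84 and 2.70 CPM there and no count at rest. B cell markers (466 to 551 CPM) and myeloid markers (136 to 185 CPM) were present in the same libraries. Which cells carried these receptors was not tested.

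Ccr7, the receptor that guides T and B cells to lymph nodes, had 1.30 and 0.103 CPM at 4T1 24 h, 7.51 and 4.94 CPM at 4T1 4 h, 167 and 149 CPM at AH1 24 h, 50.2 and 53.0 CPM at AH1 4 h, and 2.91 and 4.598 CPM at rest. As with Ccr4, its top was at AH1 24 h (log2 change 5.41 ± 0.39 against rest). Ackr3, a scavenging receptor for Cxcl12, had 38.8 and 54.4 CPM at 4T1 24 h and 75.8 and 65.4 CPM at 4T1 4 h, against at most 0.438 CPM in the other 6 libraries, so it appeared in the libraries that held epithelial markers. Cxcl12 itself did not pass the filter.

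Across the 10 libraries, the log2 levels of Cxcr3 and Cxcr6 had a Pearson r of 0.914, those of Ccr2 and Cxcr6 of 0.901, and those of Ccr2 and Cxcr3 of 0.851; libraries of a group share their treatment and cell content, so these are descriptions. Among 9799 genes with a mean of at least 5 CPM, the genes most like each receptor were Zbtb6 (r = 0.986), Ttc14 and Tpt1 for Cxcr6; Phf1 (0.995), Vps37b and Nufip2 for Cxcr3; and Dusp1 (0.992), Slc25a36 and Cyp4v3 for Ccr2. Cxcr4 was most like Prkab2 (0.963), Jun and Nab1. For Ccr8 they were Gja5 (0.946), Actg1 and Aldoa, and for Ccr4 Klk1b9 (0.977), Lrp11 and Ccng1. Rpn1 (0.986) was among those of Cxcr5.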

How the data were processed

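RNA-seq was done on 10 libraries in 5 groups. Per the labels' protocols the libraries were polyA-selected and stranded; per the submitters' processing notes mm10 and DESeq2 1.36 were used, and for the aligner, the counter and its strand setting the sources used here name nothing. The authors deposited read counts per gene with gene coordinates and lengths. Of 35275 genes, 12534 had no count and 14729 passed filterByExpr.

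From the counts, edgeR 4.0.16 (R 4.3.3) was fitted with its quasi-likelihood test, TMM factors (0.711 and 0.758 in the AH1 4 h libraries, at least 1.03 in the others) and 1 mean per group; 9 comparisons were tested two-sided with adjustment over all genes (0.05). The common biological coefficient of variation was 0.159, on 5 residual degrees of freedom. CPM uses TMM-scaled totals. T cell scaling uses 18 markers. Alternatives were DESeq2 size factors, library totals, T cell scaling, no filter, a replicate block, the compared groups alone, DESeq2 1.42.0 and leaving out each library. Libraries of a group differed beyond sampling noise (mean chi-square per gene 6.94 to 47.7). Coordinates are mm10; promoters are from RefSeq.

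The receptors, lists and tests were chosen with earlier results of these data known. All receptors are named; of each other list, its ligands or up to 4 genes per comparison and direction by p-value; and the 3 genes most like each receptor. Of 120 listed symbols, 3 were not found. Some genes these rules would name are not reported here.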

Additional observations from a re-analysis of the deposited data

Results flagged for a closer look

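Of the 7 receptors, 5 changed over time differently in co-culture and with peptide (edgeR interaction term). Among all genes tested, 15.8% had a positive and 20.2% a negative difference past the threshold. The difference of the log2 changes from 4 h to 24 h, co-culture minus peptide, was -4.28 for Ccr4. Relative to all genes, Ccr4 rose with peptide and was not called in co-culture (called as a rise of 1.47 there under T cell scaling). The difference was -3.50 for Ccr8, which fell in co-culture and was not called with peptide. Under T cell scaling Ccr8 was called as a rise of 1.87 with peptide, where the median of all genes was 1.43. For Cxcr4 the difference was -0.91. Relative to all genes, Cxcr4 fell by 2.41 in co-culture and by 1.51 with peptide (the change with peptide was not called under T cell scaling). The differences were 1.73 for Cxcr3 and 1.57 for Cxcr6, which fell with peptide relative to all genes and were not called in co-culture. Under T cell scaling Cxcr3 (1.30) and Cxcr6 (1.42) rose in co-culture, where the median of all genes was 1.44. The change of Cxcr6 with peptide was not called there (-0.18). Each group had 2 libraries.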

How the results depend on the processing

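Over 9 comparisons and 7 receptors there were 63 log2 changes. T cell scaling kept the sign and the call or its absence in 39, reversed the sign of 13, and, of those that kept their sign, ended 6 calls and added 5. Reversed were, against rest, Ccr4 (1.00), Cxcr3 (0.17), Cxcr4 (1.27) and Cxcr6 (1.02) at 4T1 24 h and Ccr4 at AH1 4 h (-0.67); for 4T1 against AH1, Ccr2 at 24 h (1.07) and Ccr2 (0.28), Ccr4 (0.21), Cxcr3 (1.45) and Cxcr6 (0.95) at 4 h; and for 24 h against 4 h, Cxcr5 with peptide (0.50) and Cxcr3 (1.30) and Cxcr6 (1.42) in co-culture. It also called 12500 genes for 4T1 against AH1 at 24 h (7742 with TMM), and for 4T1 24 h against 4 h 11438 genes (2433) and 6 receptors (3). Of the genes called against rest, the share that rose was 97.6%, 87.7%, 76.8% and 23.1% with T cell scaling at 4T1 24 h, 4T1 4 h, AH1 24 h and AH1 4 h, and 55.2%, 56.1%, 52.8% and 48.4% with TMM. For 4T1 against AH1 it was 95.2% (54.4%) at 24 h and 95.9% (57.2%) at 4 h, and for 24 h against 4 h 98.7% (51.5%) in co-culture and 94.1% (53.4%) with peptide. By construction these shares move against the T cell markers. Library totals reversed Ccr4 at AH1 4 h against rest (-0.39) and Cxcr3 at 4T1 4 h against AH1 4 h (0.20), neither called, and ended the calls of Cxcr6 at 4T1 4 h against AH1 4 h (-0.28) and Cxcr5 at AH1 24 h against 4 h (-0.37), and added those of Cxcr4 at AH1 4 h against rest (-0.76) and Ccr8 at AH1 24 h against 4 h (1.06); the share that rose became 31.0% at AH1 4 h against rest, 79.6% at 4T1 4 h against AH1 4 h, 77.4% at AH1 24 h against 4 h and 16.1% in the difference of changes (43.9% with TMM). DESeq2 size factors, DESeq2 itself and no filter ended no receptor's call. DESeq2 added those of Cxcr3 for 4T1 against AH1 at 4 h (adjusted p = 0.0408) and of Ccr2 in the difference of changes (0.0292). DESeq2 size factors in edgeR added the same calls (0.0482 and 0.0423), and no filter added that of Ccr2 (0.0447). The compared groups alone ended the calls of Ccr8 at 4T1 24 h against rest (1.26) and Ccr2 for 4T1 against AH1 at 24 h (-0.83). They added that of Cxcr3 for 4T1 against AH1 at 4 h (-0.39). The replicate block changed no call and turned the sign of Cxcr5 at 4T1 4 h against rest (-0.019). The differences between replicates correlated over genes by -0.161 to 0.081 between groups. These values showed no pairing by replicate number, and they cannot exclude it. Leaving out 1 library gave 896 to 2931 genes called for 4T1 24 h against 4 h, with the lowest counts without 4T1 4 h replicate 2 (896), 4T1 4 h replicate 1 (1252) and 4T1 24 h replicate 2 (1393). Signs of uncalled changes turned in Cxcr5 against rest at 4T1 24 h (-0.13 to 0.59) and 4T1 4 h (-0.37 to 0.41), Ccr4 at AH1 4 h against rest (-0.079 to 0.27), and, for 4T1 24 h against 4 h, Ccr4 (-0.18 to 0.27), Cxcr3 (-0.42 to 0.13), Cxcr5 (-0.081 to 0.57) and Cxcr6 (-0.18 to 0.13). With 1 library left out, Cxcr3 for 4T1 against AH1 at 4 h ran between -0.60 and -0.25. In the difference of changes, Ccr2 then ran between 0.53 and 1.05 and Cxcr5 between 0.65 and 1.77. The cause of the other differences was not tested. Depth limits Cxcr5 outside the peptide groups.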

Other observations

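Genes of the machinery below the receptors changed in both directions. Of 15 signalling genes, 4 rose and 9 fell at 4T1 24 h against rest, 3 rose and 8 fell at 4T1 4 h, 4 rose and 4 fell at AH1 24 h, and 6 rose and 7 fell at AH1 4 h; under T cell scaling the counts were 7 and 1, 7 and 5, 9 and 3, and 1 and 8. Of all genes tested, 36.0% rose and 29.3% fell at 4T1 24 h with TMM, 34.2% and 26.7% at 4T1 4 h, 29.2% and 26.1% at AH1 24 h, and 28.8% and 30.7% at AH1 4 h; under T cell scaling 11842 of 14729 genes rose and 293 fell at 4T1 24 h, 8986 and 1264 at 4T1 4 h, 6716 and 2033 at AH1 24 h, and 2181 and 7253 at AH1 4 h. Gng2, a G protein gamma subunit, had 62.5 and 65.1 CPM at 4T1 24 h, 44.3 and 51.6 CPM at 4T1 4 h, 168 and 195 CPM at AH1 24 h, 41.0 and 39.7 CPM at AH1 4 h, and 383 and 431 CPM at rest. It was below rest in every activated library, and the fall was called in all 4 groups with TMM and not at 4T1 24 h with T cell scaling (-0.18).

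Of 14 measured genes that end receptor signalling, 1 rose and 10 fell at 4T1 24 h against rest, 1 rose and 8 fell at 4T1 4 h, 2 rose and 6 fell at AH1 24 h, and 6 rose and 5 fell at AH1 4 h; under T cell scaling the counts were 8 and 5, 4 and 4, 5 and 6, and 4 and 7. The shares of all genes are those given for the signalling genes. Rgs16, which speeds GTP hydrolysis by Gi proteins, had 133 and 91.6 CPM at 4T1 24 h, 393 and 411 CPM at 4T1 4 h, 22.6 and 20.6 CPM at AH1 24 h, 2718 and 3161 CPM at AH1 4 h, and 28.7 and 29.2 CPM at rest. Rgs1, of the same family, had 55.8 and 74.1 CPM at 4T1 24 h, 217 and 211 CPM at 4T1 4 h, 120.3 and 138 CPM at AH1 24 h, 5959 and 4494 CPM at AH1 4 h, and 579 and 551 CPM at rest. Both were highest at AH1 4 h and lower at 24 h than at 4 h in both arms, where the lower level of Rgs1 at 4T1 24 h than at 4T1 4 h was not called under T cell scaling (-0.28, edgeR adjusted p = 0.246). Rgs1 fell below rest in the other 3 groups, a fall not called at 4T1 4 h under T cell scaling (-0.34).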
